A study of Bos taurus with 6 samples.

Results

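Insulin signalling and glucose uptake genes were compared between 2 breeds of cattle in the longissimus dorsi, a muscle that runs along the back. The list held 35 genes chosen for their role in the pathway, with earlier results of these data known. They were the insulin receptor and its adaptors, the kinases downstream, the glucose carriers with the proteins that move them, and the negative regulators. Of these, 27 were named by a probe set with a single gene symbol on the array, and where a gene had several probe sets the brightest one stood for it. The muscle came from 3 Japanese Black and 3 Holstein steers, all male and all given energy-rich feed, with 1 array per animal. Japanese Black cattle are bred for marbled beef and Holstein cattle for milk. All groups shared the feed, so the comparison is of breeds under that feeding and not of its effect. The labels give no age for the animals and do not say whether those of a breed were related.

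Insulin binds a receptor tyrosine kinase at the surface of the muscle fibre. The receptor recruits adaptor proteins, these activate phosphoinositide 3-kinase, and the lipid it makes brings the AKT kinases to the membrane. AKT then releases glucose carrier vesicles for fusion with the surface membrane, relieves the block on glycogen synthesis and, through the mTOR complex, promotes protein synthesis. Skeletal muscle is a main site of insulin-driven glucose uptake, and much of the pathway is controlled by phosphorylation and by movement of proteins, which an array of messenger RNA does not measure.

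At their brightest probe sets the members showed no difference between the breeds that passed adjustment. Differences below subtract Holstein from Japanese Black and are on the log2(signal + 16) scale, where the added 16 intensity units steady dim values and understate the change of dim genes. Of the 27 named members 25 were bright enough to be tested; SLC2A3 and TRIB3 were too dim in both breeds. In limma's moderated test, 0 of the 25 passed an adjusted p of 0.05, beside 3 of 18012 probe sets, or 0.0167%, over the whole array. At an unadjusted p under 0.05 there were 2 members (8%), PIK3CA and PPP2CA, against a background of 12.6% of probe sets. The breeds did not overlap for 3 members (12%), GRB2, PIK3CA and PPP2CA, where 19.8% of all probe sets tested showed no overlap, so neither count stood above the array as a whole in this fit. With each probe set's own variance in place of limma's moderated one, 0 members passed after adjustment. Before adjustment 3 did (12%, against 10% of all probe sets), and with array weights 5 (20%, against 12.5%): GRB2, PIK3CA, PIK3R2, RPS6KA1 and PPP2CA.

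The size of the differences was also close to that of the array. The members' log2 differences lay between -0.45 and 0.73, with a median of 0.05, and the median over all probe sets tested was 0.01. The median size regardless of direction was 0.18 for the members and 0.19 for all probe sets. There were 18 members above 0 and 7 below, or 72% above, where 51% of all probe sets were. That balance moved with the arrays used: it was 14 above 0 without Japanese Black 3 and 15 after quantile normalization. The 95% interval lay within 1 log2 unit of 0 on either side for 22 members, and within a 1.5-fold difference either way for 12; over all probe sets tested these shares were 87.2% and 39.9%. The members whose interval reached past 1 log2 unit were PIK3CA, RPS6KA1 and SLC2A4. The interval of each member is shown in the plot of differences by role.

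**Figure D1:**
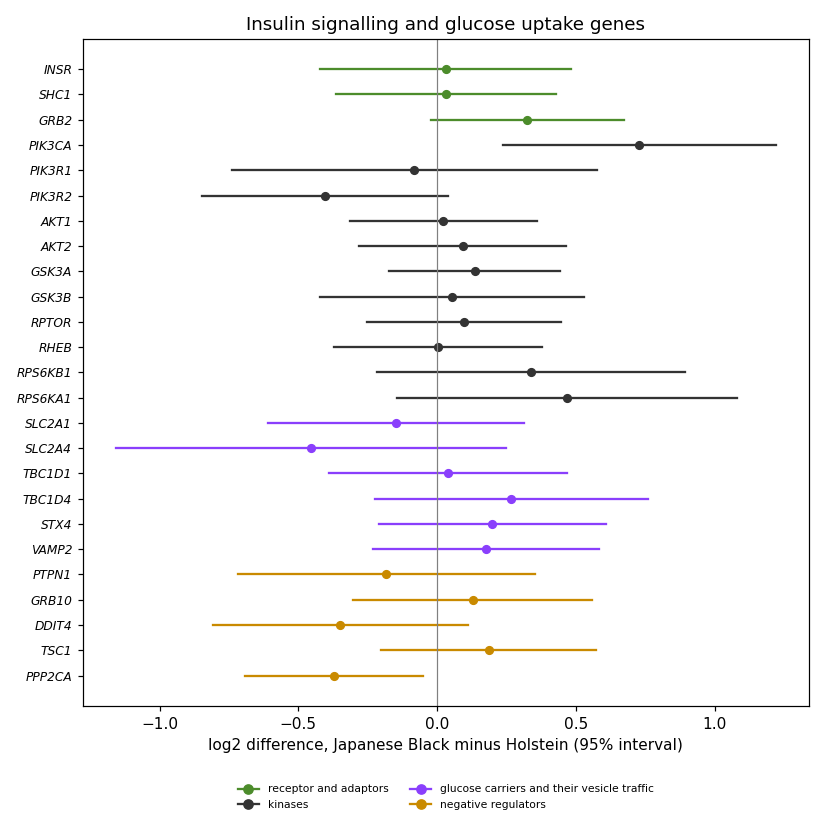
Difference on the log2(signal + 16) scale with Holstein subtracted from Japanese Black (x axis), for the 25 members tested, coloured by role; points are estimates and bars limma's 95% intervals, with 3 steers per breed. The intervals of PIK3CA and PPP2CA alone exclude 0 before any adjustment, and those of PIK3CA, RPS6KA1 and SLC2A4 reach past 1 log2 unit.

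The receptor gene INSR was dim on this array and its probe sets did not give the same picture. At the brightest, Bt.28461.1.A1_at, the signal was 40.0, 28.4 and 24.6 in Japanese Black 1, 2 and 3 and 25.9, 41.2 and 23.6 in Holstein 1, 2 and 3. The breeds overlapped fully there, with a log2 difference of 0.03 (SE 0.20) and a 95% interval from -0.42 to 0.48. The 4 other probe sets of INSR were all lower in every Japanese Black steer than in any Holstein steer. At Bt.28461.2.S1_a_at the signal was 0, 6.41 and 3.83 in Japanese Black and 39.3, 24.3 and 47.9 in Holstein. At Bt.28461.1.S1_a_at it was 8.87, 4.80 and 2.51 against 27.2, 14.6 and 27.0. The gap between the breeds was wide at Bt.28461.2.S1_a_at, from 6.41 to 24.3. At Bt.28461.1.S1_a_at it was smaller, from 8.87 to 14.6, and Holstein 2 was itself dim there. The Japanese Black values of both probe sets are near the floor of the array. The Holstein values reach up to 47.9 at Bt.28461.2.S1_a_at and 27.2 at Bt.28461.1.S1_a_at, beside a median over all probe sets of 48.5 to 54.7.

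Because 3 of these 4 INSR probe sets fell to the filter on dim probe sets, they were also fitted with no filter, over 24016 probe sets. The log2 difference was then -1.44 (95% interval -1.92 to -0.96, adjusted p 0.102) at Bt.28461.2.S1_a_at and -0.86 (-1.30 to -0.42, adjusted p 0.287) at Bt.28461.1.S1_a_at by limma, so neither passed. The offset sets their size: with offsets of 64 and 1 the first was -0.58 and -3.48, and the second -0.32 and -1.98. The first passed without Holstein 2 (adjusted p 0.0466), in a fit with 17 probe sets past the threshold; over the other settings run on all probe sets its adjusted p lay between 0.0717 and 0.411. The remaining INSR probe sets were Bt.28461.1.A1_a_at, with a difference of -0.44 (SE 0.18, adjusted p 0.390), and Bt.28461.1.S1_at, with -0.24 (SE 0.17, adjusted p 0.619 with no filter). At both of them the gap between the breeds was narrow, from 19.4 to 20.2 and from 16.4 to 16.6. Of probe sets too dim to be tested 5.86% were lower in Japanese Black with no overlap. Which transcript or strand each INSR probe set reads is not given in the sources used here, and the part this played was not tested.

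**Figure D2:**
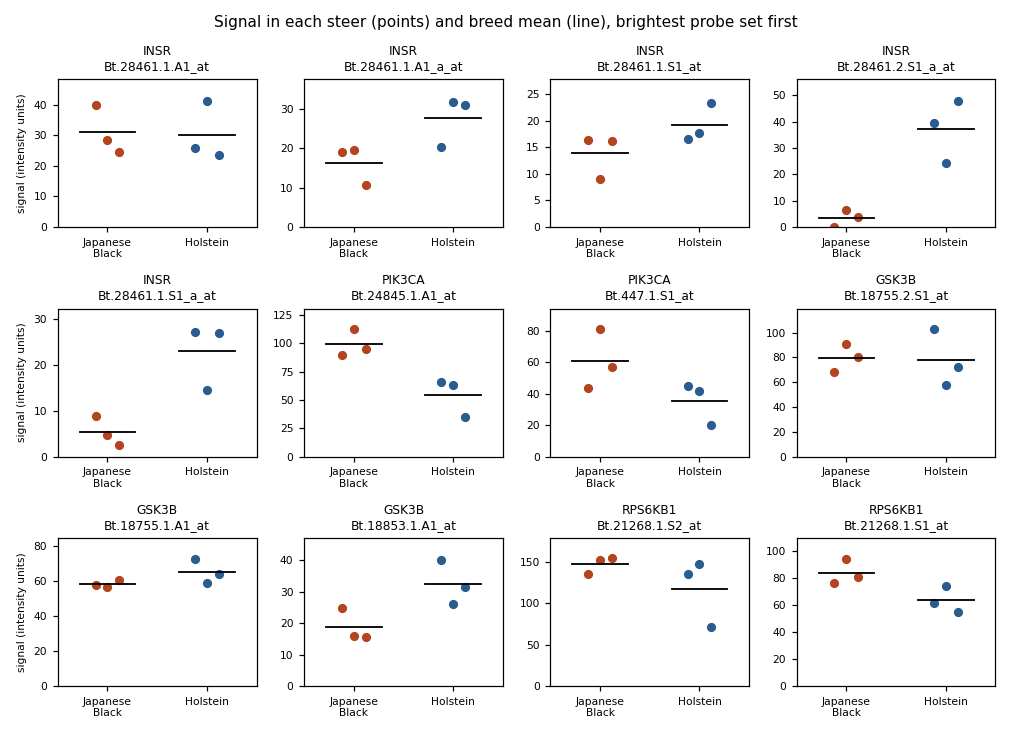
Signal in intensity units (y axis, linear from 0) of each probe set of INSR, PIK3CA, GSK3B and RPS6KB1, with 1 point per steer and a line at the breed mean (n = 3 per breed). The brightest INSR probe set overlaps between breeds while its other 4 lie lower in all Japanese Black steers, and both PIK3CA probe sets have the higher mean in Japanese Black.

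Of the adaptors, GRB2 links activated receptors to the RAS pathway. Its signal was 278, 330 and 298 in the Japanese Black steers and 246, 234 and 232 in the Holstein steers. Every Japanese Black value exceeded every Holstein value, but the step was small, at 0.33 (SE 0.15, 95% interval -0.02 to 0.67), and did not pass (adjusted p 0.421). SHC1, a further adaptor of receptor tyrosine kinases, had a difference of 0.03 at its brightest probe set, with means of 882 and 870. Its 2 dimmer probe sets had differences of -0.02 and 0.30. IRS1 and IRS2, the main docking proteins of the insulin receptor, and PTPN11, a phosphatase that acts as a positive regulator of the pathway, were not named by a probe set with a single symbol and were not analysed here.

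Among the kinases PIK3CA had the largest difference of any member. It encodes a catalytic subunit of phosphoinositide 3-kinase. The signal was 89.6, 113 and 94.8 in Japanese Black and 66.2, 63.5 and 34.7 in Holstein. All Japanese Black steers were above all Holstein steers, and Holstein 3 was the lowest by far. The difference was 0.73 (SE 0.22, 95% interval 0.24 to 1.22), a 1.66-fold difference on that scale, and its unadjusted p of 0.00853 ranked 479 of 18012 probe sets. It did not pass (adjusted p 0.319 by limma). Over the 16 alternative settings the adjusted p stayed between 0.247 and 0.633, and without Holstein 3 the difference was 0.50. At its dimmer probe set, Bt.447.1.S1_at, the signal was 43.6, 80.9 and 57.0 against 44.6, 41.5 and 20.2. The breeds overlapped there, with a difference of 0.58 (SE 0.25, adjusted p 0.392) in the same direction.

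The regulatory subunits of the same enzyme did not share that direction. PIK3R2, which holds the catalytic subunit to activated adaptors, read 73.8, 54.3 and 91.6 in Japanese Black and 89.8, 111 and 100.5 in Holstein. Japanese Black 3 lay above Holstein 1, so the breeds overlapped by 1 pair, and the difference was -0.40 (SE 0.20, 95% interval -0.85 to 0.04, adjusted p 0.429). PIK3R1, the other regulatory subunit measured, varied more between the Holstein steers than between breeds. It read 43.9, 54.3 and 62.1 in Japanese Black and 51.0, 101 and 33.8 in Holstein, a difference of -0.08 (SE 0.29). PIK3CB, a second catalytic subunit, and PDPK1, the kinase that phosphorylates AKT, were not analysed here.

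The AKT kinases were nearly level between breeds. AKT2, the form most tied to insulin-driven glucose uptake, read 234, 280 and 227 in Japanese Black and 244, 208 and 240 in Holstein. The breeds overlapped, the difference was 0.09 (SE 0.17) and its 95% interval, -0.28 to 0.47, excludes a 1.5-fold difference either way. AKT1 had a difference of 0.02, with means of 720 ± 38.5 (SD, n = 3) and 711 ± 73.4 (SD, n = 3). GSK3A and GSK3B, the kinases that AKT blocks to allow glycogen synthesis, had differences of 0.14 and 0.05. For GSK3B the dimmer probe sets went the other way, at -0.13 and -0.48. The latter, Bt.18853.1.A1_at, read 24.7, 15.9 and 15.6 in Japanese Black and 40.1, 26.1 and 31.6 in Holstein, without overlap, and did not pass (adjusted p 0.354).

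In the mTOR branch RHEB, the small GTPase that activates the complex, had means of 2460 and 2454 and a difference of 0.0036 (95% interval -0.37 to 0.38). RPTOR, its scaffold subunit, had a difference of 0.10 (SE 0.15, 95% interval -0.25 to 0.45). It read 211, 218 and 246 in Japanese Black and 200.4, 216 and 211 in Holstein, so Japanese Black 1 lay below Holstein 2 and the breeds overlapped. RPS6KB1, the ribosomal protein S6 kinase downstream of the complex, read 136, 152 and 154 in Japanese Black and 135, 147 and 70.7 in Holstein. Its difference of 0.34 (SE 0.25, adjusted p 0.564) rested on Holstein 3, without which it was 0.05. The dimmer RPS6KB1 probe set had a like difference of 0.33 (SE 0.17, adjusted p 0.438) with no overlap, reading 76.6, 94.4 and 81.0 against 61.9, 73.8 and 54.9. RPS6KA1, a related kinase driven by the RAS branch, read 136, 193 and 110 in Japanese Black and 73.1, 88.0 and 147 in Holstein. Holstein 3 was high there and the breeds overlapped, with a difference of 0.47 (SE 0.27, adjusted p 0.487). It was 0.72 without Holstein 3. MTOR itself was not analysed here.

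SLC2A4, the insulin-responsive glucose carrier of muscle and fat, varied strongly from animal to animal. Its signal was 339, 554 and 261 in Japanese Black and 669, 346 and 565 in Holstein. Japanese Black 2 was within the upper Holstein range, and Holstein 2 lay between Japanese Black 1 and Japanese Black 2. The difference of -0.45 (SE 0.31, 95% interval -1.16 to 0.25) did not pass (adjusted p 0.546), and leaving out single steers moved it between -0.74 and -0.22. Adipocytes also make this carrier. The summed signal of 7 adipocyte markers was 3027, 3433 and 13845 in Japanese Black and 6793, 10738 and 2054 in Holstein. The steer with the highest adipocyte sum, Japanese Black 3, had the lowest SLC2A4 signal, and the part of fat in the SLC2A4 values was not tested. In whole muscle, fewer cells of a type and less RNA per cell cannot be told apart.

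SLC2A1, the carrier of basal glucose uptake, read 79.0, 93.7 and 106 in Japanese Black and 107, 79.2 and 132 in Holstein. The ranges overlapped almost fully, with a difference of -0.15 (SE 0.20, 95% interval -0.61 to 0.31). Endothelial cells also carry it, as do erythrocytes of some species. The summed erythrocyte markers ran from 3711 to 4942 in Japanese Black and from 3355 to 4078 in Holstein, but GYPC made up most of that sum. GYPC was at 0.30 and the other 4 tested erythrocyte markers were below 0, with HBB at -0.63 and with ALAS2 (-0.24) and AHSP (-0.22) lower in all Japanese Black steers. The endothelial sums ran from 1981 to 3013 and from 2780 to 3488, with 7 of 8 markers below 0 and a median of -0.30. EGFL7 (-0.61) and KDR (-0.27) were lower in all Japanese Black steers. Of all probe sets tested 8.84% were lower in Japanese Black with no overlap. No marker of either list passed, and their part in the SLC2A1 values was not tested. SLC2A3, a high-affinity carrier best known from neurons, was listed between 12.3 and 19.6 in all 6 steers and was too dim to be tested.

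Proteins that hold back or release the carrier vesicles also overlapped between breeds. TBC1D4, the AKT substrate that restrains vesicle movement, read 823, 815 and 998 in Japanese Black and 1012, 606 and 618 in Holstein. Holstein 1 stood with the Japanese Black steers, and the difference was 0.27 (SE 0.22, 95% interval -0.22 to 0.76, adjusted p 0.611). It was 0.50 without Holstein 1. Its relative TBC1D1 had a difference of 0.04 at a dim probe set. STX4 and VAMP2, membrane fusion proteins of the cell surface and the vesicle, had differences of 0.20 and 0.18, with adjusted p of 0.648 and 0.684. For all 6 tested members of this role the breeds overlapped.

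**Figure D3:**
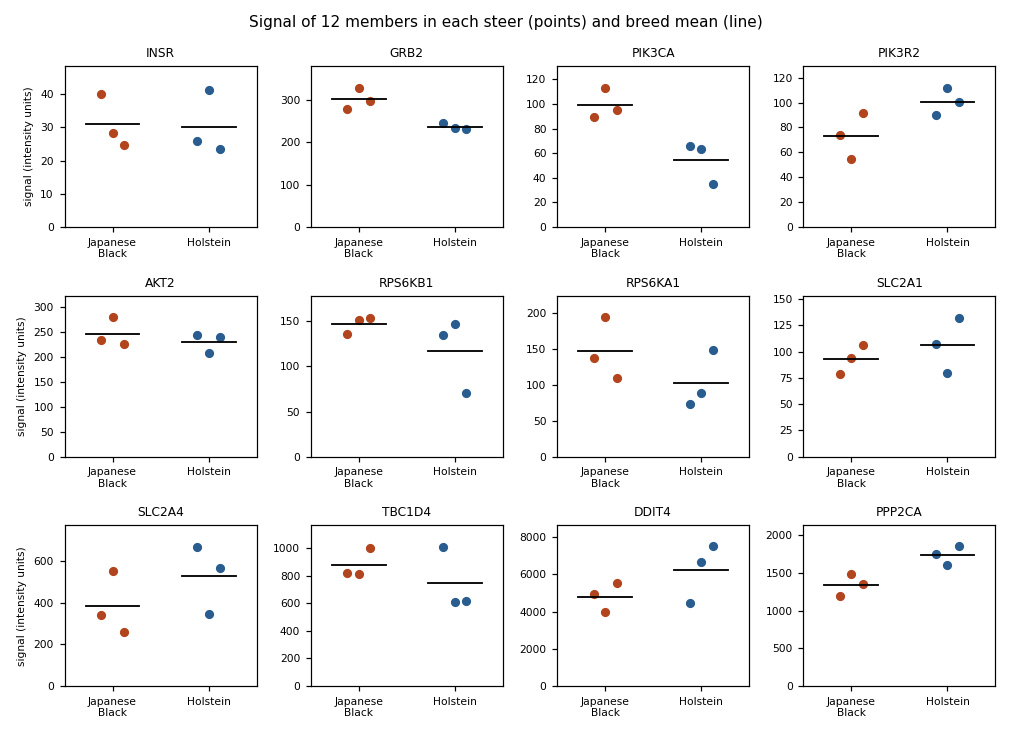
Signal in intensity units (y axis, linear from 0) of 12 members at their brightest probe set, with 1 point per steer and a line at the breed mean (n = 3 per breed). GRB2 and PIK3CA lie higher and PPP2CA lower in all Japanese Black steers, while the other 9 overlap.

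Of the negative regulators PPP2CA, a catalytic subunit of protein phosphatase 2A, which removes activating phosphates from AKT, came closest to a difference. Its signal was 1198, 1481 and 1350 in Japanese Black and 1757, 1607 and 1852 in Holstein. The lowest Holstein steer was above the highest Japanese Black steer. The difference was -0.37 (SE 0.14, 95% interval -0.69 to -0.05), with an unadjusted p of 0.0275 and an adjusted p of 0.362, so it did not pass. The direction held in all 16 alternative settings, between -0.44 and -0.29. PPP2CB, the other catalytic subunit of this phosphatase, had a difference of 0.04 (95% interval -0.28 to 0.35), with means of 2913 and 2827.

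DDIT4, a stress-induced inhibitor of mTOR, read 4926, 3982 and 5530 in Japanese Black and 4469, 6684 and 7510 in Holstein. Holstein 1 lay inside the Japanese Black range, and the difference of -0.35 (SE 0.20, adjusted p 0.488) did not pass. Without Holstein 1 it was -0.57. PTPN1, the phosphatase that acts on the insulin receptor itself, had a difference of -0.18 (SE 0.24). GRB10, an adaptor that inhibits the receptor, and TSC1, part of the complex that switches RHEB off, had differences of 0.13 (SE 0.19) and 0.19 (SE 0.17). TRIB3, a pseudokinase reported to bind AKT, was listed between 12.9 and 20.8 and was too dim to be tested. GRB14 and TSC2 were not analysed here. By role, the median difference was 0.03 for the 3 receptor and adaptor genes, 0.09 for 11 kinase genes, 0.11 for 6 carrier and vesicle genes and -0.18 for 5 negative regulators. These medians moved with the settings. The first was 0.18 with the dimmest 50% left out, and that of the kinases 0.02 after quantile normalization. For the carriers it was -0.03 without Japanese Black 3, and for the negative regulators -0.04 with array weights.

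No steer was the highest or the lowest for more than 6 of the 25 members. The median within-breed standard deviation of a member was 0.23 on the log2 scale, the same as over all probe sets tested. It was largest for SLC2A4 (0.50), PIK3R1 (0.46) and RPS6KA1 (0.41), and smallest for RPTOR (0.09) and GRB2 (0.09). Japanese Black 3 gave the highest value of 5 of the 25 members, or 20%, against 31.4% of all probe sets. Japanese Black 2 and Holstein 1 also gave the highest value of 5 each, against 12.7% and 11.5% of all probe sets. Holstein 2 gave the lowest value of 6 members, or 24%, against 9.88% of all probe sets, and the members' median deviation from their own mean was -0.11 there, where that of all probe sets was 0.015. These shares were not tested. Holstein 3 gave the highest value of 6 members and the lowest of 6, or 24% each, against 24.3% and 27.6% of all probe sets. The values in every steer appear in the heat map of members.

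**Figure D4:**
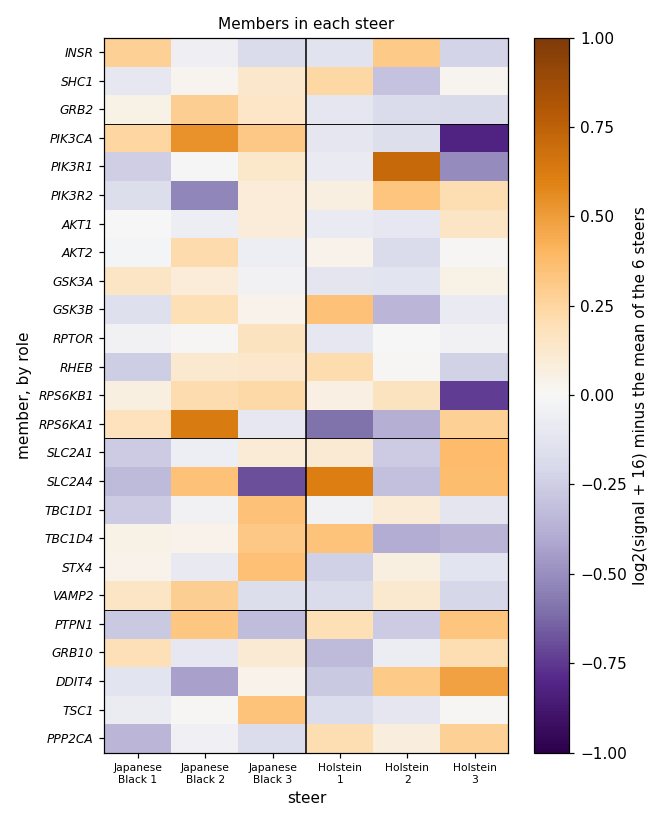
Log2(signal + 16) of the 25 members in each of the 6 steers (columns), minus the member's mean over the steers (colour scale, log2 units), with members grouped by role and a line between the breeds. PIK3CA and RPS6KB1 are lowest in Holstein 3, SLC2A4 is lowest in Japanese Black 3, and no steer is high or low for all members.

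The wider pathway was followed in 138 further genes, of which 89 were named and 84 bright enough to test. Here too 0 passed the adjusted threshold by limma, and 12 had an unadjusted p under 0.05, or 14.3% beside the 12.6% of all probe sets. There were 42 above 0 and 42 below, with a median of 0.00. Among partners and outputs of AKT and mTOR, 0 of 17 passed. In that list 6 genes did not overlap, or 35.3% beside 19.8% of all probe sets, with 3 higher and 3 lower in Japanese Black. Over all 84 genes 16 did not overlap, or 19%, which is near the share of the array. The share in the other lists ran from 0% of 8 RAS and MAPK genes to 40% of 5 sugar carrier and glucose use genes. SGK1, a kinase related to AKT that is induced by glucocorticoids and regulated through phosphoinositide 3-kinase, had the largest difference of the 84. It read 207, 354 and 400 in Japanese Black and 865, 593 and 1789 in Holstein. All Holstein steers were above all Japanese Black steers, with Holstein 3 highest. The difference was -1.61 (SE 0.39, 95% interval -2.48 to -0.73, adjusted p 0.287). Of its dimmer probe sets one gave -1.59 and the other, near the floor, -0.08. EIF4EBP1, the translation inhibitor that mTOR inactivates, read 142, 97.4 and 97.6 against 132, 271 and 209. Its difference of -0.74 (SE 0.26, adjusted p 0.347) came with overlap at Holstein 1.

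Of 15 further genes of vesicle traffic 0 passed, and those with the smallest p pointed in opposite directions. VAMP8, a vesicle fusion protein, read 90.1, 89.8 and 103 in Japanese Black and 137, 171 and 197 in Holstein, a difference of -0.73 (SE 0.18, adjusted p 0.287). KIF5B, a kinesin motor reported to carry vesicles of this carrier, read 2349, 2368 and 2707 against 1649, 1876 and 932, a difference of 0.79 (SE 0.24, adjusted p 0.321). Neither gene overlapped between breeds. Among 14 genes near the receptor RHOQ, a small GTPase studied in glucose uptake of fat cells, read 1106, 1028 and 988 against 828, 428 and 546. Its difference was 0.83 (SE 0.23, adjusted p 0.310), without overlap. RAPGEF1, an exchange factor of the same branch, had 0.39 (SE 0.16, adjusted p 0.379) at its brightest probe set and -0.15 and -0.07 at dimmer ones.

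The other lists held 0 genes past the threshold as well. Of 18 inhibitory phosphatases, kinases and adaptors CISH, a cytokine-induced inhibitor of the SOCS family, had the smallest p. It read 194, 46.6 and 83.4 in Japanese Black and 236, 488 and 198 in Holstein, which separated the breeds by a narrow gap, with a difference of -1.46 (SE 0.45, adjusted p 0.321). PRKCD, a protein kinase C form, followed at 0.34 (adjusted p 0.424), with a probe set too dim to test at -0.23. Among 5 genes of other sugar carriers and early glucose use, SLC2A5, the fructose carrier, and SLC2A6 had differences of -0.42 (adjusted p 0.389) and -0.45 (adjusted p 0.364), both at dim probe sets reading 11.1 to 44.6. The untested dimmer probe sets of SLC2A5 had -0.07 and -0.30, and that of VAMP8 had -0.29. PIK3R4 and PIK3R3, regulatory subunits of lipid kinases, had 0.36 (adjusted p 0.389) and -0.18 (adjusted p 0.681) among 7 phosphoinositide genes, and the dimmer PIK3R4 probe set had 0.04. In the RAS and MAPK branch, with 8 genes tested, HRAS and NRAS came first at 0.35 (adjusted p 0.453) and 0.40 (adjusted p 0.503).

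**Figure D5:**
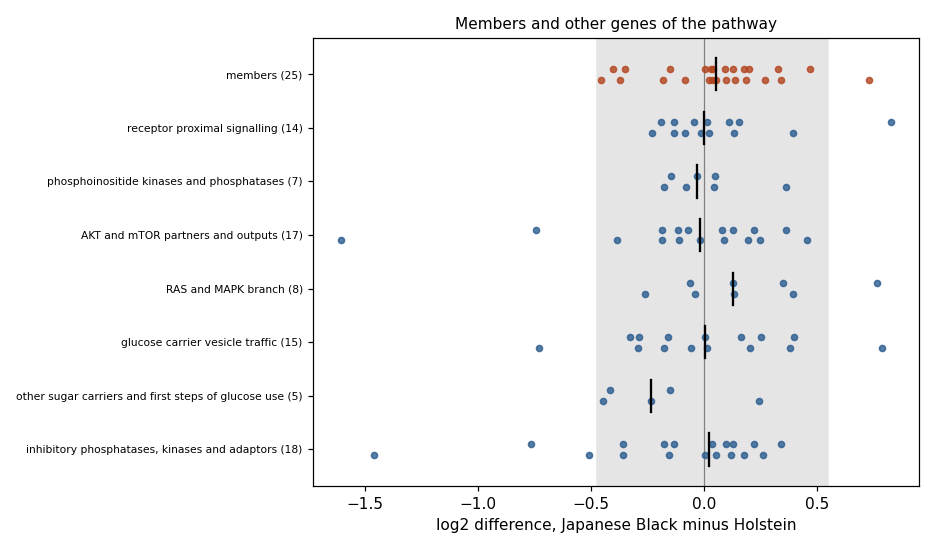
Log2 difference, Japanese Black minus Holstein (x axis), of the members and of 7 lists of other pathway genes (rows, with the number tested); each point is a gene, each black line a median, and the grey band spans the 5th to 95th percentile of all probe sets tested, -0.47 to 0.55. SGK1 and CISH lie farthest to the left, at -1.61 and -1.46.

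Arrays and tissue were checked against these results. Japanese Black 3 was the brightest array, with an upper quartile of 205 against 172 to 181 elsewhere. Holstein 3 had the highest signal of the BioB control, at 471 against 245 to 309 elsewhere. It also had the most probe sets listed at 0, with 372 against 247 to 319. The part of these traits of Holstein 3 in the differences above was not tested. The ratio of the 3′ to the 5′ actin control was 1.11 to 1.14 in Japanese Black and 1.0 to 1.07 in Holstein, so it separated the breeds, and its part in the differences above was not tested. Of 11 muscle fibre markers 8 were named, and their summed signal was 99105 to 107142 in Japanese Black and 103076 to 104000 in Holstein. The summed signals of fibres, adipocytes, endothelium, fibroblasts, erythrocytes, leukocytes, smooth muscle and nerve overlapped between breeds in every case, and 0 of the tested markers passed. Single markers did separate the breeds, in both directions, as 19.8% of all probe sets tested did. S100B of the nerve list was higher in all Japanese Black steers (0.91, adjusted p 0.313), as was THY1 of the fibroblast list (0.66, adjusted p 0.287). Both went against most of their list. The other nerve markers tested, MBP (-0.19) and SOX10 (-0.30), were below 0, and SOX10 was lower in all Japanese Black steers. Of 7 fibroblast markers 5 were below 0, with DPT at -0.70. ACTA1 of the fibre list was higher in all Japanese Black steers. CKM of that list and LMOD1 of the smooth muscle list were lower in all. The nerve sums overlapped only at 1483 in Japanese Black 2 and 1484 in Holstein 2. S100B made up most of the nerve sum in every steer, at 1370 and 1354 in those named. The part of these cells in the members' values was not tested.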

How the data were processed

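Total RNA of 6 muscle samples was hybridised as biotin-labelled cRNA to Affymetrix arrays, 1 per steer, per the labels' protocols. The authors deposited an intensity on a linear scale for each of 24128 probe sets. The software was GCOS 1.1.1 and Affymetrix Expression Console 1.1, per the submitters' processing notes. How probes were summarised or arrays scaled is not given in the sources used here, and no further scaling was applied.

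Leaving out 112 control probe sets left 24016. Log2(signal + 16) was taken and the dimmest 25% by mean left out, so that 18012 were tested. Breeds were tested two-sided with limma 3.58.1 (R 4.3.3, eBayes with trend), and p-values were adjusted by Benjamini-Hochberg over these 18012. SE and 95% intervals are moderated. The fit was also run on simulated data drawn as independent normal values. These lack the traits of single arrays reported above, so that run cannot speak for them. The breed came from the labels, and replicate numbers only name animals; the spread is between steers, 3 per breed, which limits the precision. The series names a paired t-test without giving pairs, so the comparison was unpaired.

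Genes were named from the platform annotation (13292 probe sets with 1 symbol, 86 with several, 10638 with none), whose gene identifiers matched RefSeq for 13263. No coordinates are given, since no build is named.

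Members and lists were chosen with earlier results of these data known. Values in every steer are given for the 8 members with the smallest p and for INSR, AKT2, SLC2A4, SLC2A1 and TBC1D4, and for some others chosen after their values were seen, as PPP2CB was. Of each other list the 2 genes with the smallest p are named. Alternatives were the offset, the filter, scaling, variance model, array weights, the mean over a gene's probe sets and leaving out each steer. Plots used Python 3.11.15 and matplotlib 3.10.9.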

Additional observations from a re-analysis of the deposited data

How the results depend on the processing

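Of the 25 members and 84 other pathway genes tested, 0 passed an adjusted p of 0.05 under any of the 16 alternatives, and the adjusted p of a member at its brightest or averaged probe sets was 0.247 or higher throughout; a dimmer INSR probe set had 0.102 with no filter and 0.0466 without Holstein 2. The count over all probe sets, 3 as reported, was 0 with an offset of 1, with the dimmest 50% left out and with unmoderated variances, and 10 with array weights; it was 0 to 15 when single steers were left out, highest without Holstein 2. The members without overlap numbered 3 of 25 as reported. There were 5 after median centring, beside 20.6% of all probe sets. With the mean over a gene's probe sets there were 6, beside 19.8%. Without single steers 5 to 9 members did not overlap, beside 25.3% to 33.9% of all probe sets, because a breed then held fewer arrays. The members' median was 0.05 to 0.13 without single steers, and that of the other pathway genes -0.08 (without Japanese Black 3) to 0.06.

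Direction was the same in 371 of 397 refits of single members and for 16 members in all of theirs. It turned after quantile normalization for SHC1 (-0.07), AKT1 (-0.08) and RHEB (-0.09), with array weights for RHEB (-0.07) and TBC1D1 (-0.06), and with the mean over probe sets for INSR (-0.59, adjusted p 0.287) and GSK3B (-0.19). Without single steers the range crossed 0 for INSR (-0.10 to 0.19), SHC1 (-0.11 to 0.16), PIK3R1 (-0.36 to 0.26), AKT1 (-0.03 to 0.10), GSK3B (-0.11 to 0.24), RHEB (-0.11 to 0.13), TBC1D1 (-0.13 to 0.18), SLC2A1 (-0.32 to 0.00) and GRB10 (-0.01 to 0.26). The cause of these turns was not tested. No paired analysis was possible because no label tells which steers were paired. Signal near the floor of the array left SLC2A3 and TRIB3 untested, and INSR and VAMP2 were also dim.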
